A study of Mus musculus with 4 samples.

Results

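The interferon response and the presentation of peptides on MHC class I were followed through 46 named genes in cultured mouse liver epithelium. The genes were chosen by symbol, and all 46 stood in the expression table, which lists 24493 gene symbols. They comprised 6 Stat and Irf factors, 20 antiviral effectors, 3 RNA sensors, 7 Gbp and Parp genes and 10 genes of antigen presentation. RNA from 4 untreated cultures was sequenced. Bil_2D denotes biliary cells that had been derived from hepatocytes and kept as 2D cultures (n = 2). Hep_3D denotes hepatocytes kept as 3D cultures (n = 2). The cells were of hepatocyte origin and of the C57BL/6 strain in both. In either state replicate 1 was the clone 15C7 and replicate 2 the clone 19H5, so 2 clones carried the whole study. Cell state and culture format changed together and cannot be told apart. The labels do not say more on how independent the cultures were, and the p-values below therefore reflect only how these libraries scattered, which can be partly technical.

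Interferons are secreted proteins, and cells make those of type I and type III when they sense viral nucleic acid. Type I and type III interferons act through Jak1 and Tyk2 on Stat proteins and Irf9, which bind interferon-stimulated response elements (ISREs) in the promoters of antiviral genes, while interferon gamma acts on gamma-activated sites (GAS) and strongly induces Irf1, guanylate-binding proteins and class I genes. Peptides cut by the proteasome are pumped into the endoplasmic reticulum by Tap1 and Tap2, loaded with the help of tapasin (Tapbp) and carried to the surface by a class I heavy chain with beta-2-microglobulin (B2m). Hepatocytes are known for low class I levels at rest and for a strong response to interferon during viral hepatitis.

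The sequences upstream of these genes are shown first because the ISRE is the letter pattern by which many of them are recognised. RefSeq promoter windows on GRCm38.p6 covered 250 bases before and 50 bases after the start of 37 of the 46 genes. The ISRE was searched on both strands as GAAA, any 2 bases, GAAA, and 16 of the 37 genes held a match, against 3.99% of 27025 genes with a window. The GAS pattern TTCNNNGAA, searched on both strands, was found in 12 of the 37, against 9.55% of all genes. By group, an ISRE match stood in 2 of 6 Stat and Irf factors, 8 of 16 antiviral effectors, 2 of 2 RNA sensors, 3 of 5 Gbp and Parp genes and 1 of 8 antigen presentation genes. The list is named for the interferon response, so this describes the list, and a match is neither a binding site nor a cause. Below, 200 bases before a RefSeq transcript start of 5 genes are given 5′ to 3′ on the gene's strand, with the ISRE matches in capitals. Isg15, Ifit1 and Ifit3 are shown because their values moved in opposite directions in the 2 clones, and B2m and Bst2 because they were among the most abundant members. All were chosen after the values were seen.
Isg15: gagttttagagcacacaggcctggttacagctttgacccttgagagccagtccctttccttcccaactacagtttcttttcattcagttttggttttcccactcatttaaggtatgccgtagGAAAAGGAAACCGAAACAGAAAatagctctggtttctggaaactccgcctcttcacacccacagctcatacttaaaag
Ifit1: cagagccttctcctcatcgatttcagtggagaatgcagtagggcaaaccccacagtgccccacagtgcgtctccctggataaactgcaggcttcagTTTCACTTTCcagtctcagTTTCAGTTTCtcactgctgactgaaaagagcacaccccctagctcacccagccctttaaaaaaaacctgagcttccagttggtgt
Ifit3: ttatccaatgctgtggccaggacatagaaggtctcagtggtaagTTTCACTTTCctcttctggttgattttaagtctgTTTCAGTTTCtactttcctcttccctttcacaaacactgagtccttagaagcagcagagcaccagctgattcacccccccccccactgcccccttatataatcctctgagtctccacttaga
Bst2: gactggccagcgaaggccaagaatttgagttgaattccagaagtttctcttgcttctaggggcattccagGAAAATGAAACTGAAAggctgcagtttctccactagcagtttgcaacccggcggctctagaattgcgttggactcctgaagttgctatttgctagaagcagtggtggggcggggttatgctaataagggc
B2m: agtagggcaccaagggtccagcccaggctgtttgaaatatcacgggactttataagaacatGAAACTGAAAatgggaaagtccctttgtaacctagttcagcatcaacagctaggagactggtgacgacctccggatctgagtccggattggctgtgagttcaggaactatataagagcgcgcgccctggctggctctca
The stretches lie at chr4:156200819-156201018, minus strand (Isg15), chr19:34640689-34640888, plus strand (Ifit1), chr19:34583329-34583528, plus strand (Ifit3), chr8:71537473-71537672, minus strand (Bst2) and chr2:122147487-122147686, plus strand (B2m). Isg15 held 3 overlapping matches starting at bases -78, -72 and -66 from its start. Ifit1 held 2 at -104 and -85, Ifit3 held 2 at -156 and -122, Bst2 held 2 overlapping matches at -130 and -124, and B2m held 1 at -139. In Ifitm3, the only member called once clone was taken as a block, both matches lay just after the start, at bases 3 and 20.
Ifitm3: GAAAAGGAAActtctgaGAAACCGAAA
This short stretch lies at chr7:141010716-141010742, minus strand.

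Levels were given as TPM (a measure of transcript abundance, the length-corrected share of each library), which allows genes to be compared with each other but keeps no sequencing depth, so counting error was unknown. B2m had the highest level of the list in every library, and H2-K1 the next highest. For B2m the level was 1282 and 1532 TPM in Bil_2D and 1047 and 1201 TPM in Hep_3D, which ranked it 124th and 108th of all gene symbols in Bil_2D and 122nd and 93rd in Hep_3D. Between 4 and 5 of the 46 members reached 100 TPM in each library, and 13 or 14 stood above the median of all genes tested. At the other end, 7 members were under 1 TPM in each Bil_2D library, and 12 and 15 were so in Hep_3D. For a test, a gene needed 1 TPM or more in 2 or more libraries. Of the members, 38 met this and 8 did not, namely Oas2, Oasl2, Mx1, Mx2, Ifi44, Dhx58, Gbp3 and Nlrc5.

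**Figure D1:**
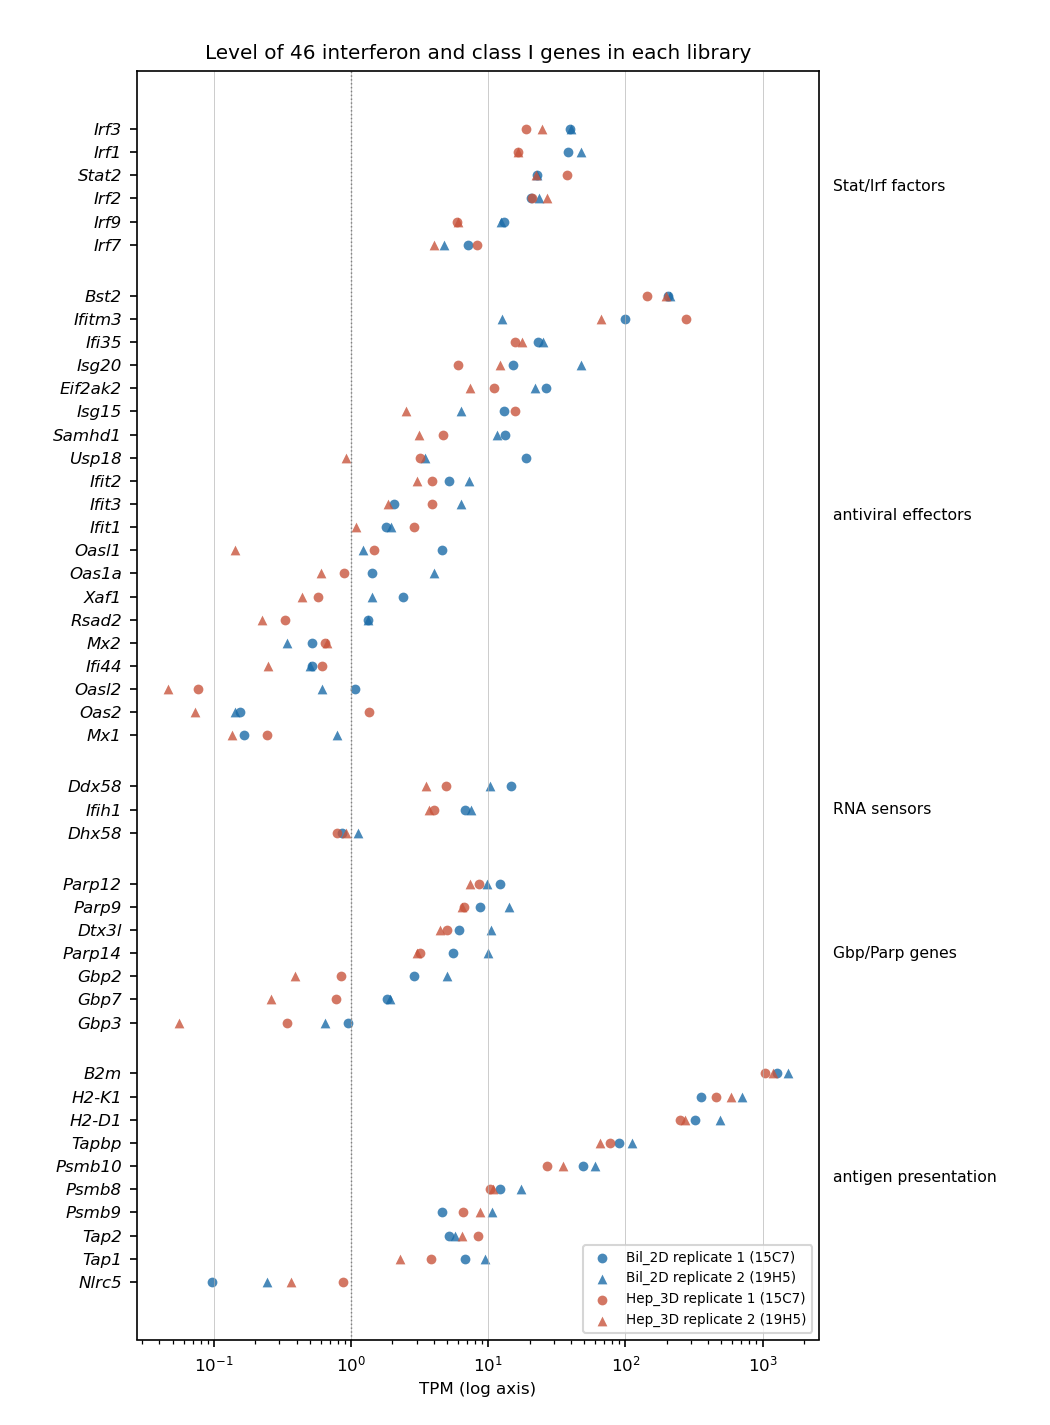
TPM of the 46 genes (log axis) in each of the 4 libraries, by role. Blue is Bil_2D and red Hep_3D, circles are clone 15C7 and triangles clone 19H5. B2m, H2-K1 and H2-D1 lie above 100 TPM in all 4 libraries.

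The comparison of hepatocyte with biliary cultures asked whether these transcripts differed between the states. On the rule used here none of the members did: 0 of 38 were called by limma, against 16.2% of all genes tested (6.69% higher and 9.54% lower in Hep_3D). A call required an adjusted p under 0.05 (Benjamini-Hochberg over the 12336 genes tested) in one direction on 2 scales, TPM as given and TPM after median-of-ratios scaling. Both were used because the 50 most abundant genes of each library took 46.6% and 48.4% of TPM in Hep_3D against 22.4% and 24.8% in Bil_2D. Log2 fold changes are log2(value + 1) in Hep_3D minus that in Bil_2D and understate differences of low genes. Over all genes tested they had a median of -0.73 in TPM and -0.02 after median-of-ratios scaling. At an unadjusted p under 0.05 in the same direction on both scales there were 3 of 38 members, against 3330 of 12336 genes. A p that misses the threshold does not show that a gene was equal in both states. With 2 libraries against 2, no exact permutation p can be smaller than 0.333. In bulk RNA, fewer cells with a transcript and less of it per cell cannot be told apart.

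Each scale alone gave another picture. On the TPM scale 15 members fell in Hep_3D and 0 rose, where 58.7% of all genes differed (51.9% lower and 6.80% higher). That count of 15 was smaller in each fit that left out a library. Calls over all genes on both scales also became fewer in those fits. The drop is therefore not shown to be particular to the members. Without the filter on low values the count of members was 10, and the share of all genes on the TPM scale in that fit is not given. On the median-of-ratios scale 1 member rose, Tap2, and 0 fell, where 21.4% of all genes differed (11.9% higher and 9.54% lower), and with any library left out this count was 0. The median log2 fold change of the 38 members was -0.68 in TPM and 0.02 after median-of-ratios scaling, close to that of all genes. In 13 members the sign differed between the scales. Positive fold changes were found in 6 of 38 members in TPM, against 2110 of 12336 genes. After median-of-ratios scaling they were found in 19 of 38 members, against 5998 of 12336 genes. Both Hep_3D libraries lay below both Bil_2D libraries on both scales for 9 members, against 34.7% of all genes, and above for 1 member, Tap2, against 11.1%. The difference had the same sign in both clones on both scales for 21 of 38 members, against 75.3% of all genes.

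**Figure D2:**
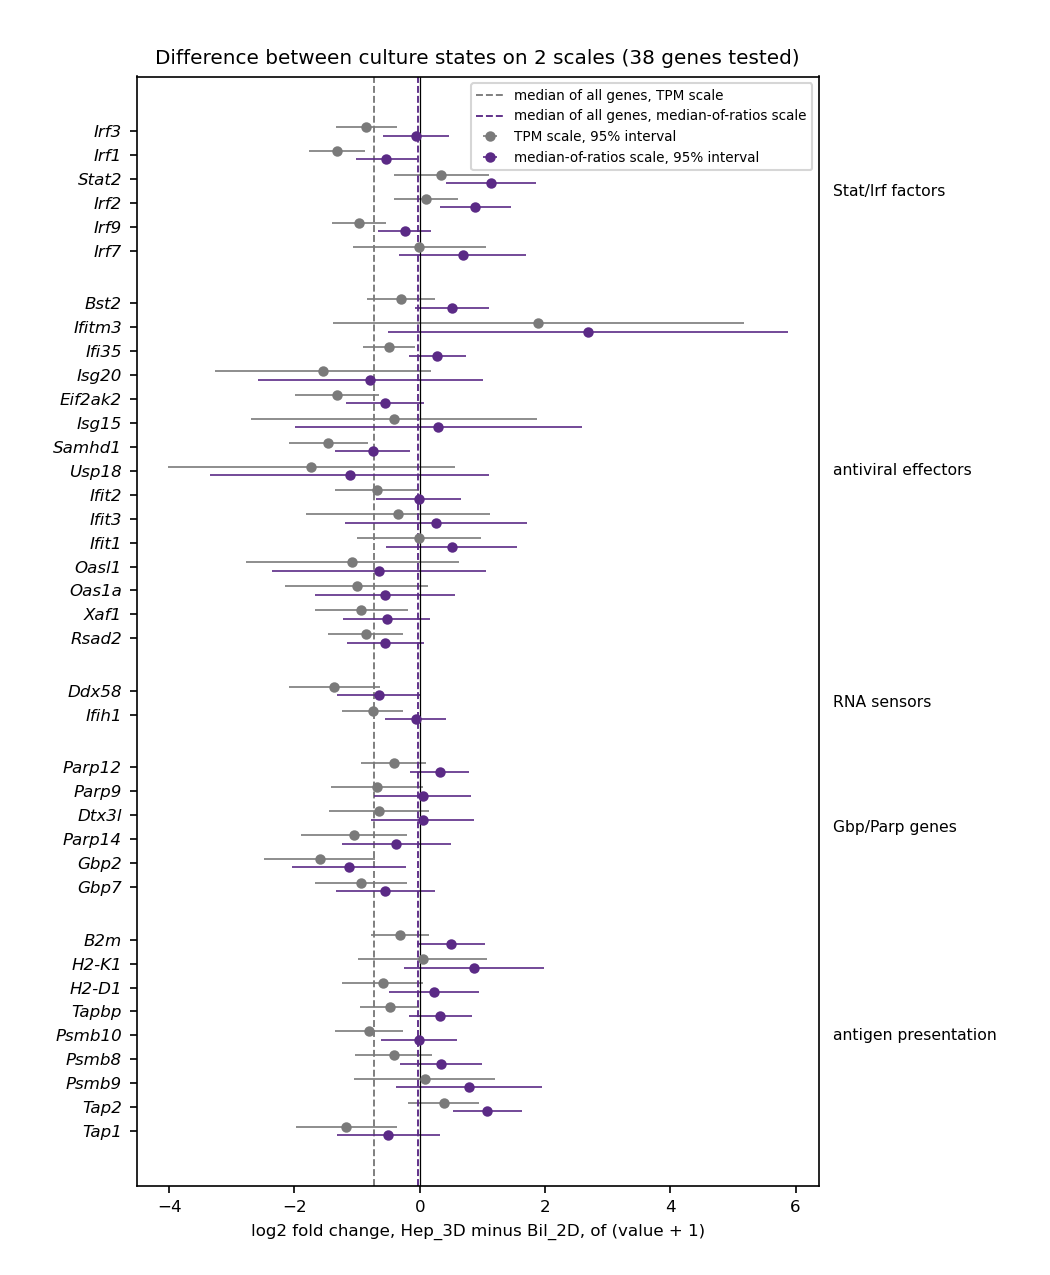
Log2 fold change of each of the 38 members tested, Hep_3D minus Bil_2D, with its 95% interval from limma, on the TPM scale and the median-of-ratios scale. Dashed lines are the medians of all genes on each scale (-0.73 and -0.02), and Ifitm3, Usp18, Isg15 and Isg20 have wide intervals.

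Upstream of the members, interferon transcripts themselves were nearly absent. Of 10 interferon genes (Ifnb1, Ifna1, Ifna2, Ifna4, Ifna5, Ifnk, Ifne, Ifnl2, Ifnl3 and Ifng), 8 were listed at 0 in all 4 libraries, which without counts may also be failed estimates. Ifnk and Ifne were listed at 0.290 and 0.403 TPM in Bil_2D replicate 1 and at 0 elsewhere. All 13 genes on a list of receptors, kinases and brakes were tested. On both scales 0 fell, against 9.54% of all genes, and 1 rose, against 6.69%. This was Socs3, a feedback inhibitor of Jak signalling that also answers to interleukin-6. Socs3 had 47.2 ± 15.8 TPM in Bil_2D and 158 ± 11.0 TPM in Hep_3D (SD, n = 2), and the groups did not overlap. The log2 fold change of Socs3 was 1.76 (SE 0.26, limma adjusted p = 0.00918) in TPM and 2.56 (adjusted p = 0.0124) after median-of-ratios scaling. The call was lost when either Hep_3D library was left out (median-of-ratios adjusted p = 0.0692 without replicate 1 and 0.0727 without replicate 2). Ifnar2, a chain of the type I interferon receptor named after its values were seen, had 51.7 and 65.5 TPM in Bil_2D and 76.4 and 122 TPM in Hep_3D. Its limma adjusted p was 0.0857 in TPM and 0.0378 after median-of-ratios scaling. With clone as a replicate block these were 0.0222 and 0.0169, and Ifnar2 counted as higher. Ifngr1, Ifnlr1 and Jak2, also named after their values were seen, lay the other way without being called on both scales. Ifngr1, a chain of the interferon gamma receptor, had 89.9 and 244 TPM in Bil_2D and 31.6 and 38.4 TPM in Hep_3D (log2 fold change -2.06, limma adjusted p = 0.0283 in TPM, and -1.25 with 0.17 after median-of-ratios scaling). Ifnlr1, of the type III receptor, had log2 fold changes of -1.26 and -0.69. With the kinase gene Jak2 (-1.03 and -0.24), these 3 of 13 were lower in Hep_3D without overlap on both scales, against 34.7% of all genes. Socs3 and Ifnar2, 2 of 13, were higher without overlap on both scales, against 11.1%. On the TPM scale alone 7 of 13 fell, against 51.9% of all genes.

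Among the Stat and Irf factors, 0 of 6 were called on both scales, against 16.2% of all genes. On the TPM scale alone 3 of 6 (Irf1, Irf3 and Irf9) fell, against 51.9% of all genes. Irf1, a transcription factor that drives class I genes (chromosome 11, 53770014 to 53778374), had 38.3 and 47.4 TPM in Bil_2D and 16.6 and 16.4 TPM in Hep_3D. The groups were well separated, at 42.9 ± 6.43 and 16.5 ± 0.152 TPM (SD, n = 2). Its log2 fold change was -1.32 (SE 0.17, limma adjusted p = 0.00718) in TPM and -0.53 (SE 0.18, adjusted p = 0.106) after median-of-ratios scaling. The TPM-scale call of Irf1 held in all 4 fits that left out a library. Irf2, which competes with Irf1 for the same element, had 20.3 and 23.3 TPM in Bil_2D and 20.7 and 26.6 TPM in Hep_3D, and these overlapped. The ratio of Irf1 to Irf2 within a library does not depend on library scaling. It was 1.88 and 2.04 in Bil_2D and 0.800 and 0.615 in Hep_3D, or 2.79-fold higher in Bil_2D by geometric means (exact two-sided permutation p = 0.333, the smallest possible here).

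Irf9 and Stat2 belong to the same interferon-activated complex. Irf9, its DNA-binding subunit, had 12.9 and 12.4 TPM in Bil_2D and 5.89 and 6.06 TPM in Hep_3D (log2 fold change -0.97, limma adjusted p = 0.0109 in TPM, and -0.24 with 0.326 after median-of-ratios scaling). Stat2 had 22.6 and 22.7 TPM in Bil_2D and 37.6 and 22.4 TPM in Hep_3D, where Hep_3D replicate 1 stood apart. The ratio of Irf9 to Stat2 was 0.573 and 0.549 in Bil_2D and 0.157 and 0.271 in Hep_3D. These did not overlap, with an exact two-sided permutation p of 0.333, the smallest possible here. Irf3, the latent factor that sensors activate, had 39.6 and 40.3 TPM in Bil_2D and 18.9 and 24.8 TPM in Hep_3D. Its log2 fold change was -0.85 in TPM and -0.06 after median-of-ratios scaling. Irf7, which amplifies type I interferon production, had 7.17 and 4.75 TPM in Bil_2D and 8.30 and 4.01 TPM in Hep_3D, higher in clone 15C7 in both states.

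The cytosolic RNA sensors were low in both states, and 0 of 2 tested were called on both scales, against 16.2% of all genes. Both fell on the TPM scale alone, where 51.9% of all genes did. Ddx58 encodes RIG-I, which binds viral RNA ends (chromosome 4, 40203777 to 40239825). It had 14.6 and 10.2 TPM in Bil_2D and 4.89 and 3.49 TPM in Hep_3D, and both Hep_3D libraries were lower on both scales. The log2 fold change of Ddx58 was -1.36 (SE 0.27, limma adjusted p = 0.0158) in TPM and -0.65 (SE 0.24, adjusted p = 0.131) after median-of-ratios scaling. Ifih1, which encodes the long double-stranded RNA sensor MDA5, had 7.15 ± 0.457 TPM in Bil_2D and 3.84 ± 0.224 TPM in Hep_3D (SD, n = 2). Its median-of-ratios fold change was -0.07, with a 95% interval from -0.56 to 0.42. Dhx58 (LGP2, a regulator of both) ranged from 0.787 to 1.13 TPM and was not tested.

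Of 14 further genes of sensing and signalling 12 were tested. On both scales 1 rose and 0 fell, against 6.69% and 9.54% of all genes. Tmem173, the STING adaptor of DNA sensing, had 0.377 and 0.268 TPM in Bil_2D and 15.2 and 6.26 TPM in Hep_3D, so it was near absent from the biliary cultures. The log2 fold change of Tmem173 was 3.04 (SE 0.44, limma adjusted p = 0.00872) in TPM and 3.50 (adjusted p = 0.0154) after median-of-ratios scaling. The call was lost without Bil_2D replicate 1 (median-of-ratios adjusted p = 0.104) and without Bil_2D replicate 2 (0.122). Ikbke, a kinase that phosphorylates Irf3, was named after its values were seen and had 48.7 and 60.0 TPM in Bil_2D and 6.85 and 15.4 TPM in Hep_3D. Its limma adjusted p was 0.0124 in TPM and 0.0769 after median-of-ratios scaling, and with the replicate block 0.00996 and 0.0353, where it counted as lower.

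Of the 20 antiviral effectors 15 were tested and 0 were called on both scales, against 16.2% of all genes. On the TPM scale alone 5 of 15 (Rsad2, Ifi35, Eif2ak2, Xaf1 and Samhd1) fell, against 51.9% of all genes. The median log2 fold change of the 15 was -0.86 in TPM and -0.53 after median-of-ratios scaling. Eif2ak2 encodes the kinase PKR, which stops translation on double-stranded RNA (chromosome 17, 78850504 to 78882572). It had 26.3 and 21.8 TPM in Bil_2D and 11.0 and 7.34 TPM in Hep_3D. Samhd1, a dNTP hydrolase that restricts viral DNA synthesis, had 13.2 and 11.5 TPM in Bil_2D and 4.67 and 3.15 TPM in Hep_3D. Both genes were lower in each Hep_3D library on both scales. For Eif2ak2 the log2 fold change was -1.32 on TPM and -0.56 after median-of-ratios scaling (limma adjusted p = 0.0143 and 0.156). For Samhd1 it was -1.46 and -0.75 (adjusted p = 0.0104 and 0.0819). The antiviral enzyme viperin, encoded by Rsad2, was low, with 1.32 and 1.33 TPM in Bil_2D and 0.332 and 0.224 TPM in Hep_3D. Xaf1, an interferon-induced gene of cell death, had 2.40 and 1.42 TPM in Bil_2D and 0.574 and 0.436 TPM in Hep_3D, again without overlap.

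For other effectors the direction depended on the scale or the groups overlapped. Bst2, the tetherin that holds budding virus at the surface, had 205 and 211 TPM in Bil_2D and 143 and 199 TPM in Hep_3D, with log2 fold changes of -0.30 for TPM and 0.51 for median-of-ratios values. Ifi35 likewise differed in sign, with 22.9 and 25.2 TPM in Bil_2D and 15.8 and 17.8 TPM in Hep_3D (-0.50 and 0.28). Ifitm3 encodes a membrane protein that blocks virus entry (chromosome 7, 141009590 to 141010744). It had 98.8 and 12.6 TPM in Bil_2D and 277 and 66.2 TPM in Hep_3D, so the groups overlapped on the TPM scale. Within clones its TPM was 2.80-fold higher in Hep_3D for 15C7 and 5.27-fold higher for 19H5. Its log2 fold change was 1.89 (SE 1.21) on TPM and 2.69 (SE 1.18) on median-of-ratios values, with limma adjusted p of 0.235 and 0.176. With clone as a replicate block these p-values became 0.0122 and 0.017. Ifitm3 was then the single member of 38 called on both scales, against 7.81% of all genes called higher and 11.7% lower in that fit.

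The classical interferon-induced effectors were scattered and mostly low. Isg15, Isg20 and Usp18 passed the median of all genes tested in 1 or more libraries. Isg15, a ubiquitin-like modifier, had 13.1 and 6.32 TPM in Bil_2D and 15.6 and 2.53 TPM in Hep_3D, so each group held a high and a low library. Ifit1, which binds foreign RNA caps, ranged from 1.08 to 2.89 TPM, Ifit2 from 3.02 to 7.23 TPM and Ifit3 from 1.85 to 6.38 TPM. Isg20, an RNA exonuclease, had 15.3 and 47.6 TPM in Bil_2D and 6.04 and 12.1 TPM in Hep_3D. The groups did not overlap in TPM but did after median-of-ratios scaling. Usp18, which removes Isg15 and dampens the receptor, had 18.8 and 3.46 TPM in Bil_2D and 3.17 and 0.917 TPM in Hep_3D. Oas1a, a synthetase that activates RNase L, had 1.43 and 4.05 TPM in Bil_2D and 0.895 and 0.606 TPM in Hep_3D, and Oasl1 ranged from 0.142 to 4.62 TPM. Neither passed the test on either scale. Of the untested effectors, Oasl2 had 1.06 and 0.615 TPM in Bil_2D and 0.0769 and 0.0459 TPM in Hep_3D, and Oas2 was above 1 TPM only in Hep_3D replicate 1, at 1.35 TPM. Mx1, which is disrupted in many laboratory strains, Mx2 and Ifi44 were under 1 TPM in all 4 libraries. Ifit, Oas, Mx and Ifitm genes have close paralogs, so reads may be split between copies and their separate values are uncertain.

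Guanylate-binding proteins were low in both states, with lower values in Hep_3D. Of 7 Gbp and Parp genes 6 were tested and 0 were called on both scales, against 16.2% of all genes. On the TPM scale alone 3 of 6 (Gbp2, Gbp7 and Parp14) fell, against 51.9% of all genes. Gbp2, a GTPase that attacks pathogen vacuoles and a common readout of interferon gamma (chromosome 3, 142620663 to 142638008), had 2.90 and 5.03 TPM in Bil_2D and 0.839 and 0.390 TPM in Hep_3D. The log2 fold change of Gbp2 was -1.60 (SE 0.33, limma adjusted p = 0.0174) in TPM and -1.13 (SE 0.34, adjusted p = 0.0845) after median-of-ratios scaling. Gbp7 had 1.82 and 1.92 TPM in Bil_2D and 0.771 and 0.259 TPM in Hep_3D, and Gbp3 was under 1 TPM throughout. The Gbp genes are close paralogs and their separate values are uncertain. Parp9 and Dtx3l encode partner proteins and lie side by side on chromosome 16. Parp9 had 8.68 and 14.2 TPM in Bil_2D and 6.69 and 6.40 TPM in Hep_3D, and Dtx3l had 6.08 and 10.4 TPM in Bil_2D and 5.04 and 4.41 TPM in Hep_3D. Their fold changes were -0.68 and -0.65 for TPM and 0.05 for each on the median-of-ratios scale. Parp14, encoded nearby, had 5.51 and 9.98 TPM in Bil_2D and 3.18 and 3.02 TPM in Hep_3D. Parp12, which blocks viral translation, ranged from 7.39 to 12.2 TPM.

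The class I pathway was expressed in all 4 libraries. Of 10 genes 9 were tested and 0 were called on both scales, against 16.2% of all genes. On the TPM scale alone 2 of 9 (Psmb10 and Tap1) fell, against 51.9% of all genes. On the median-of-ratios scale alone 1 of 9 (Tap2) rose, against 11.9%. The heavy chain H2-K1 (chromosome 17, 33996012 to 34000619) had 355 and 713 TPM in Bil_2D and 460.5 and 587 TPM in Hep_3D, so the groups overlapped. The heavy chain H2-D1 (chromosome 17, 35263094 to 35267497) had 322 and 486 TPM in Bil_2D and 250.2 and 273 TPM in Hep_3D, without overlap in TPM. For B2m, their shared light chain, the log2 fold change was -0.32 (95% interval -0.79 to 0.14) for TPM and 0.50 (-0.05 to 1.04) on the median-of-ratios scale. The direction of B2m thus differed between the scales. The ratio of H2-K1 to H2-D1 was above 1 in every library and higher in Hep_3D, at 1.99 ± 0.219 against 1.29 ± 0.257 in Bil_2D (SD, n = 2). Class I heavy chain genes are near-identical over long stretches, and their separate values are uncertain.

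Tap1 and Tap2, the subunits of the peptide pump, lie beside the immunoproteasome genes Psmb9 and Psmb8 on chromosome 17 (34182030 to 34216321 from the start of Psmb9 to the end of Tap2). Tap1 had 6.72 and 9.39 TPM in Bil_2D and 3.83 and 2.28 TPM in Hep_3D. Tap2 had 5.16 and 5.68 TPM in Bil_2D and 8.42 and 6.39 TPM in Hep_3D. The first was lower and the second higher in both Hep_3D libraries in TPM. Tap1 had a log2 fold change of -1.17 (SE 0.30, limma adjusted p = 0.0302) for TPM and -0.50 (SE 0.30, adjusted p = 0.293) on the median-of-ratios scale. For Tap2 these were 0.38 (SE 0.21, adjusted p = 0.183) and 1.08 (SE 0.20, adjusted p = 0.0341). The ratio of Tap1 to Tap2 within a library was 1.30 and 1.65 in Bil_2D and 0.455 and 0.357 in Hep_3D. It was 3.64-fold higher in Bil_2D by geometric means and did not overlap, and library scaling does not alter it. Of 13 such ratios computed, all chosen with the values known, 5 did not overlap between the groups, and each of these had an exact permutation p of 0.333. With 2 libraries against 2, non-overlap has that probability without any difference between the states, so it cannot decide whether a ratio differed.

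The immunoproteasome subunits replace constitutive ones when interferon acts, and they were the minor form here. Psmb8 had 12.1 and 17.4 TPM in Bil_2D and 10.4 and 10.8 TPM in Hep_3D. Psmb9 had 4.61 and 10.7 TPM in Bil_2D and 6.52 and 8.72 TPM in Hep_3D, and Psmb10 had 49.3 and 60.0 TPM in Bil_2D and 26.8 and 34.9 TPM in Hep_3D. Their constitutive counterparts Psmb5, Psmb6 and Psmb7 were far higher, from 145 to 392 TPM. The 3 inducible subunits made up 6.83% and 9.34% of the 6 catalytic transcripts in Bil_2D and 6.61% and 8.76% in Hep_3D. This share overlapped between the states and was higher in clone 19H5 in both. The ratio of Psmb8 to Psmb5 was 0.0308 and 0.0544 in Bil_2D and 0.0392 and 0.0456 in Hep_3D. Tapbp, which holds empty class I molecules at the transporter, had 89.1 and 111 TPM in Bil_2D and 76.9 and 65.6 TPM in Hep_3D. Nlrc5, the transactivator of class I genes, had 0.0961 and 0.243 TPM in Bil_2D and 0.880 and 0.365 TPM in Hep_3D and was not tested.

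**Figure D3:**
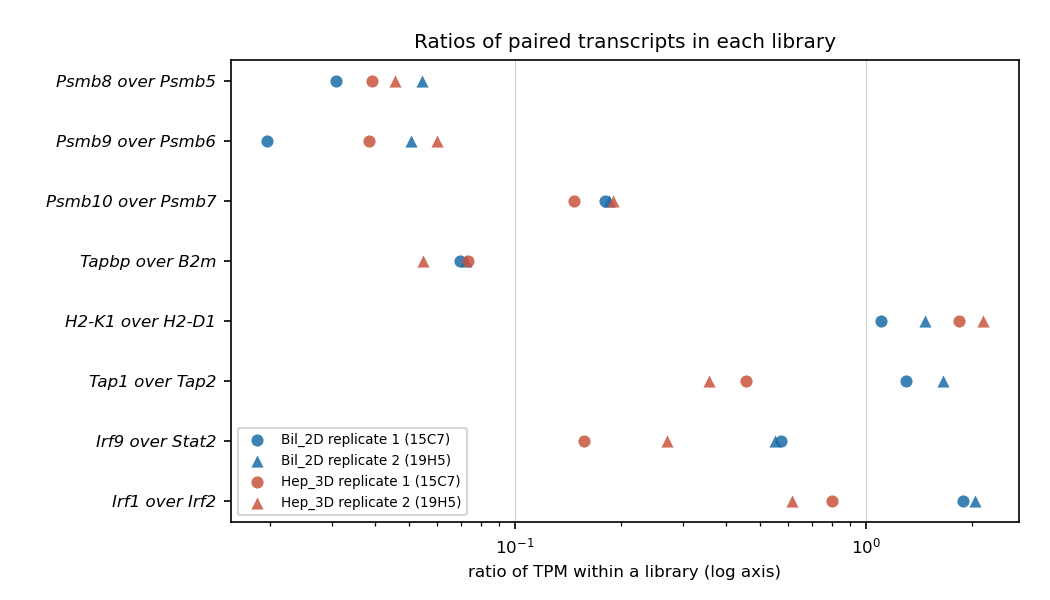
Ratios of 2 transcripts within each library (log axis), blue for Bil_2D, red for Hep_3D, circles for clone 15C7 and triangles for clone 19H5. Tap1 over Tap2 is 1.30 and 1.65 in Bil_2D and 0.455 and 0.357 in Hep_3D, and the proteasome ratios overlap.

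The clones gave a second comparison, with cell state as a term and 1 residual degree of freedom. With limma, 0 of 38 members were called between clones 19H5 and 15C7, as were 0.00% of all genes. A fit that called no gene at all cannot tell whether members differed. At an unadjusted p under 0.05 there were 7 of 38 members in TPM and 9 of 38 after median-of-ratios scaling, against 1599 and 1525 of 12336 genes. Ifitm3 was higher in 15C7, 7.86-fold in Bil_2D and 4.18-fold in Hep_3D. Usp18 was higher in 15C7 as well, 5.45-fold in Bil_2D and 3.46-fold in Hep_3D, as was Isg15, 2.07-fold in Bil_2D and 6.16-fold in Hep_3D, and Oasl1, 3.78-fold in Bil_2D and 10.3-fold in Hep_3D. Isg20 went the other way and was higher in 19H5, 3.12-fold in Bil_2D and 2.01-fold in Hep_3D. These compare single libraries and carry no error.

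The genes above were singled out with the values known, so each group was also counted as a whole, again between single libraries. Of the 9 antigen presentation genes tested, 0 were higher in 15C7 than in 19H5 in Bil_2D, against 59.5% of all genes. In Hep_3D 3 were so, against 57.4%. In both states 6 were higher in 19H5, against 22.9% of all genes. Of the 15 antiviral effectors tested, 7 were higher in 15C7 in both states, against 40.0% of all genes. Another 3 (Isg20, Ifi35 and Bst2) were higher in 19H5 in both, against 22.9%.

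**Figure D4:**
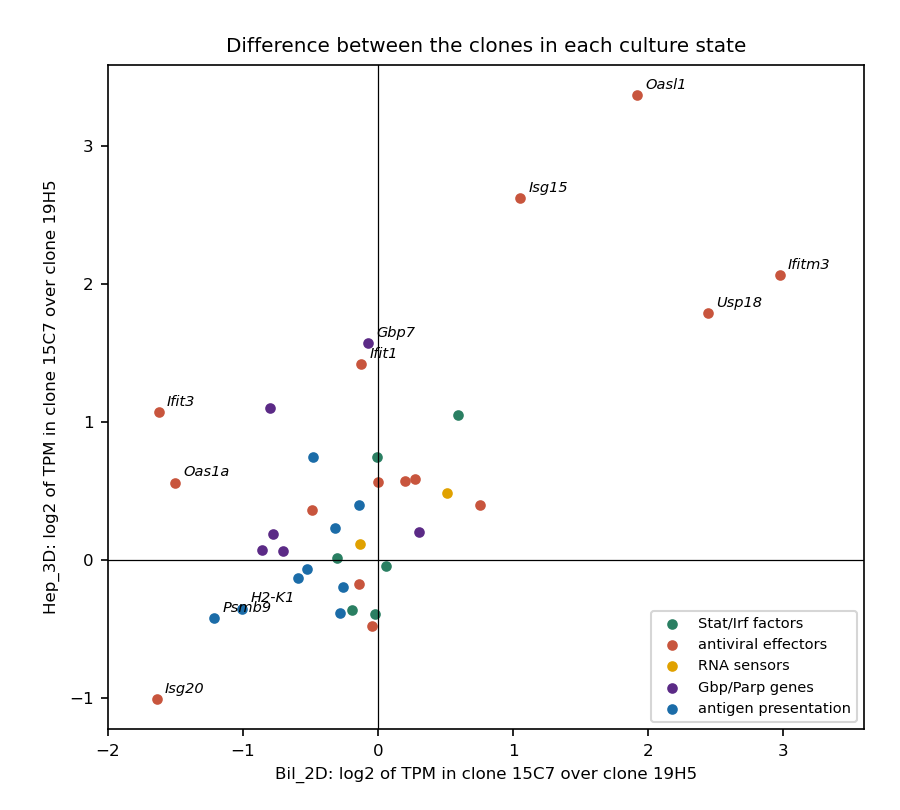
Log2 ratio of TPM in clone 15C7 over clone 19H5 in Bil_2D (horizontal) and Hep_3D (vertical) for the 38 genes tested, coloured by role. Ifitm3, Usp18, Isg15 and Oasl1 lie at the upper right, higher in 15C7 in both states, and Isg20 at the lower left.

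Related genes outside the list were called about as often as genes in general. Over 8 such lists 76 genes were tested and 12 (15.8%) were called on both scales, against 16.2% of all genes. By direction 9.21% of the 76 were higher and 6.58% lower, against 6.69% and 9.54%. Of 38 further interferon-induced genes 26 were tested, and 2 rose and 5 fell on both scales. Iigp1, an immunity-related GTPase, had 9.01 and 2.42 TPM in Bil_2D and 172 and 79.5 TPM in Hep_3D (log2 fold change 4.33, SE 0.66, limma adjusted p = 0.00945 for TPM, and 5.06 with 0.0149 after median-of-ratios scaling). Slfn2, a schlafen gene of growth control, had 215 and 253 TPM in Bil_2D and 30.0 and 30.4 TPM in Hep_3D (-2.91, SE 0.14, adjusted p = 0.00281, and -2.11 and 0.00567). Ifi204, a DNA-binding protein of the interferon-inducible p200 family, had 19.9 and 12.4 TPM in Bil_2D and 1.14 and 1.05 TPM in Hep_3D (-3.00, SE 0.28, adjusted p = 0.00543, and -2.39 and 0.012). Iigp1 thus rose and the other two fell, with no overlap. The remaining calls were named after their values were seen. Ifitm2 rose from 396 ± 12.7 to 1053 ± 14.3 TPM (SD, n = 2). Irgm1, Gbp9 and Rtp4 fell, with log2 fold changes of -1.65, -2.10 and -1.58 for TPM and -0.88, -1.52 and -0.92 for median-of-ratios values. With the replicate block Ifi27 also counted as higher (limma adjusted p = 0.0183 and 0.0171).

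Of 15 other class I and class I-like chains 12 were tested. On both scales 3 rose and 0 fell, against 6.69% and 9.54% of all genes. H2-Q10, a secreted class I molecule made by liver (chromosome 17, 35470089 to 35474563), had 5.53 and 4.48 TPM in Bil_2D and 1769 and 752 TPM in Hep_3D, above H2-K1 and H2-D1 in both Hep_3D libraries. The log2 fold change of H2-Q10 was 7.59 (SE 0.44, limma adjusted p = 0.00354) for TPM and 8.33 (adjusted p = 0.00277) on the median-of-ratios scale. Fcgrt, the receptor that salvages albumin and IgG, rose from 9.97 and 1.04 TPM to 47.4 and 26.5 TPM (2.95, adjusted p = 0.0459, and 3.63 and 0.0467). H2-Q6 had 0.343 and 0 TPM in Bil_2D and 2.47 and 1.56 TPM in Hep_3D, and it is uncertain among its close paralogs. Of 6 proteasome genes and 5 loading genes outside the list, limma called 0 on both scales, against 16.2% of all genes. On TPM alone 5 of the 6 and 2 of the 5 were lower, against 51.9% of all genes. After median-of-ratios scaling alone 2 of the 5 loading genes were higher, against 11.9%. The class II genes were low, with 2 of 7 tested and 0 called, against 16.2% of all genes. Cd74, the invariant chain, had 1.94 and 0.915 TPM in Bil_2D and 16.1 and 1.28 TPM in Hep_3D, high in 1 library only.

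Fewer than the 7 higher and 5 lower genes of these lists were called when 1 library was left out. Leaving out Bil_2D replicate 1 gave 3 and 1, Bil_2D replicate 2 gave 1 and 0, Hep_3D replicate 1 gave 3 and 1, and Hep_3D replicate 2 gave 4 and 1, of which 1 higher gene was not called with all 4 libraries. H2-Q10 (median-of-ratios adjusted p = 0.0528), Slfn2 (0.0576) and Ifitm2 (0.0548) lost the call only in the fit without Bil_2D replicate 2. Iigp1, Ifi204, Irgm1, Gbp9, Rtp4, Fcgrt and H2-Q6 lost theirs in each of the 4 fits. Fcgrt was also not called with a pseudocount of 0.1 (adjusted p = 0.0621 and 0.067 on the 2 scales) or without the filter (0.0838 and 0.09), and Rtp4 was not called without the filter (0.0169 and 0.0889).

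**Figure D5:**
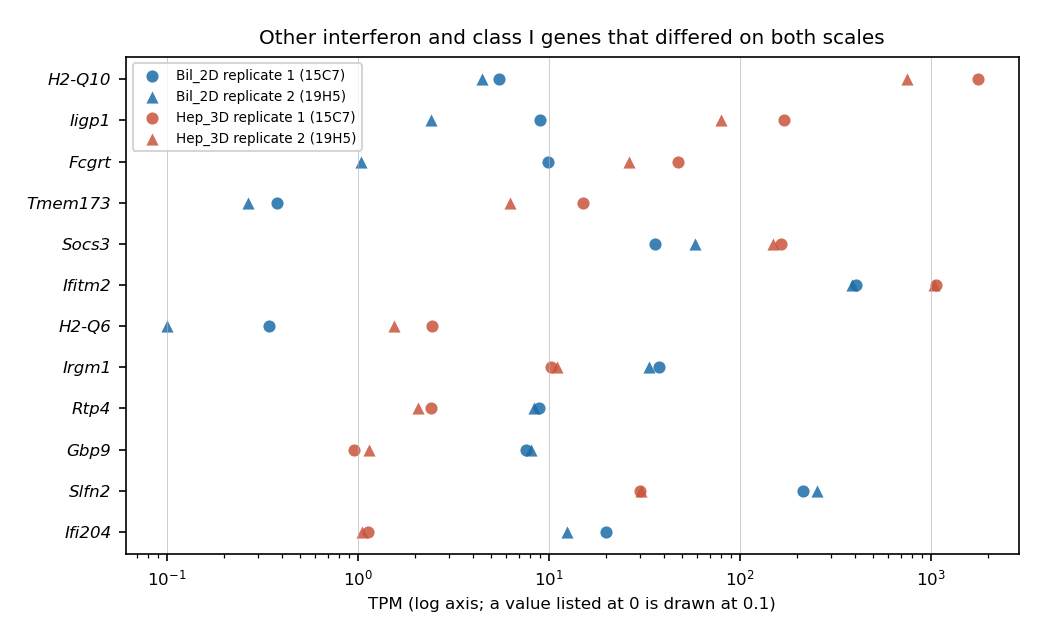
TPM (log axis) of the 12 genes outside the list that differed on both scales, blue for Bil_2D, red for Hep_3D, circles for clone 15C7 and triangles for clone 19H5. H2-Q10 goes from 5.53 and 4.48 TPM in Bil_2D to 1769 and 752 TPM in Hep_3D, while Slfn2 and Ifi204 are lower in both Hep_3D libraries.

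Immune and other cells can carry these transcripts, so their markers were measured beside the members. Of 14 leukocyte and macrophage markers found, 3 were tested and 1, Cd14, rose on both scales, against 6.69% of all genes. Their summed level was 137 and 229 TPM in Bil_2D and 495 and 487 TPM in Hep_3D, nearly all of it Cd14. Of the 14, 10 were under 1 TPM in all 4 libraries. Among these, Ptprc (CD45) was at most 0.0598 TPM, Adgre1 at most 0.0277 TPM, and Cd3e and Nkg7 were listed at 0 throughout. The others, among them Cd14 and Cd68, reached 1 TPM in 1 or more libraries. With the replicate block Cd68, a macrophage marker, counted as lower (limma adjusted p = 0.0103 and 0.0315), with 4.50 and 11.7 TPM in Bil_2D and 0.674 and 1.74 TPM in Hep_3D. All 7 endothelial markers were under the filter, with sums from 0.0840 to 0.409 TPM. Of 8 fibroblast and stellate markers 1 was tested, Dcn, which reached 178 TPM in Hep_3D replicate 1 and at most 2.79 TPM elsewhere. The part of these cells in the members' values was not tested. As for the labels, 6 of 8 hepatocyte markers rose in Hep_3D and 0 fell, against 6.69% and 9.54% of all genes. Of 7 biliary markers tested 2 fell, among them Krt19, and 1 rose, Spp1, against 9.54% lower and 6.69% higher of all genes. Spp1 was not called with the replicate block, while Krt7 and Tspan8 then counted as lower. Epcam and Cftr were low in both states.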

How the data were processed

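RNA was sequenced from 2 Bil_2D and 2 Hep_3D cultures, with libraries made by Novogene according to the labels' protocols. What the authors deposited is TPM per gene symbol, summing to 1000000 per library. TPM keeps no depth, so no counting error is given. Salmon, DESeq2 and mm10 are named in the submitters' processing notes without versions or roles, and the annotation is not given in the sources used here. limma 3.58.1 in R 4.3.3 (lmFit, eBayes with a trend) was fitted to log2(value + 1) of the 12336 genes reaching 1 TPM in 2 or more libraries, on TPM and on TPM scaled by median-of-ratios size factors (a gap of 0.82 log2 units between groups), with Benjamini-Hochberg adjustment over those genes and 2 residual degrees of freedom.

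The labels give same-numbered replicates the same clone, which pairs them, and their deviations from group means had a correlation of 0.414 across genes. No block was used except as an alternative. Members, lists and tests were chosen with earlier results of these data known. By rule, every member is named, and from each other list up to 3 called genes with the largest absolute fold change, plus Psmb5, Psmb6 and Psmb7. Genes named beyond this rule, such as Ifnar2, Ikbke, Ifi27, Cd74 and the remaining called genes, were chosen with the values known. The rule for printing promoters (called members with an ISRE match) gave 0 genes. Positions and promoters are RefSeq's on GRCm38.p6. Alternatives were other pseudocounts, filters and scalings, a minimum fold change, the block and leaving out each library. The limma fit was tested on data simulated on the TPM scale without a clone effect. The rule that needs both scales was not tested in this way. Some cell type markers are not reported here.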

Additional observations from a re-analysis of the deposited data

Results flagged for a closer look

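In 3 of the 38 members tested, Hep_3D minus Bil_2D had opposite directions in the 2 clones on both scales. Each clone gave 1 library per state, so this difference between the clones was not tested. The share of all genes with such opposite directions was not counted. For Ifit3 the value on the log2(TPM + 1) scale was 0.67 in clone 15C7 and -1.37 in clone 19H5, a difference of -2.04 (19H5 minus 15C7). For Isg15 the values were 0.23 and -1.05, a difference of -1.29. For Ifit1 they were 0.48 and -0.50, a difference of -0.98. After median-of-ratios scaling the Ifit1 values were 1.04 in 15C7 and only -0.03 in 19H5. Ifit1 and Ifit3 have close paralogs. Oas2, Mx1 and Ifi44, which were under the filter and not tested, also had opposite directions in the clones on both scales. After median-of-ratios scaling the value in 19H5 was only -0.02 for Oas2 and -0.05 for Ifi44.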

How the results depend on the processing

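With 2 libraries a group and no depth, small differences may go uncalled. Of the members 0 were called on both scales as reported. The median-of-ratios scale alone, quantile normalization alone and leaving out the 50 most abundant genes each gave 1 higher (Tap2), and clone as a replicate block gave 1 higher (Ifitm3). The TPM scale alone gave 15 lower, quantile normalization 1 lower (Samhd1) and leaving out the 50 most abundant genes 2 lower (Irf1 and Samhd1). The block changed no other call of a member, and leaving out a library gave 0 calls each time. Over all genes the 825 higher became 1465 on the median-of-ratios scale alone, 1356 with quantile normalization and 168 to 486 with a library left out. The 1177 lower became 6402 on the TPM scale alone, 2215 without the 50 most abundant genes, 629 without a filter and 20 to 303 with a library left out. In the other lists the 7 higher became 11 on the median-of-ratios scale alone and 1 to 4 with a library left out. The 5 lower became 34 on the TPM scale alone, 9 without the 50 most abundant genes, 3 with a minimum absolute log2 fold change of 1 and 0 to 1 with a library left out. Clone calls were 0 in each setting. With a pseudocount of 5 in place of the TPM-scale value, the log2 fold change turned positive for Irf7 (0.0071) and Ifit1 (0.011). With quantile normalization in place of the TPM-scale value, the log2 fold change turned positive for Irf7 (0.62), Ifit1 (0.44), Ifit3 (0.20), Isg15 (0.24), Ifi35 (0.19), Bst2 (0.31), Parp12 (0.25), Psmb8 (0.27), Tapbp (0.19) and B2m (0.087). With leaving out the 50 most abundant genes in place of the TPM-scale value, the log2 fold change turned positive for Irf7 (0.48), Ifit1 (0.37), Ifit3 (0.073), Isg15 (0.050), Ifi35 (0.030), Bst2 (0.25), Parp12 (0.083), Psmb8 (0.094), Tapbp (0.064) and B2m (0.23). Over the 4 fits without a library, the TPM-scale fold change crossed 0 for Stat2 (-0.015 to 0.71), Irf2 (-0.066 to 0.28), Irf7 (-0.45 to 0.44), Ifit1 (-0.46 to 0.44), Ifit3 (-0.98 to 0.28), Isg15 (-1.53 to 0.70), Psmb9 (-0.45 to 0.61) and H2-K1 (-0.45 to 0.55). On the median-of-ratios scale it did so for Irf3 (-0.28 to 0.15), Ifit2 (-0.25 to 0.21), Ifit3 (-0.36 to 0.87), Isg15 (-0.84 to 1.43), Isg20 (-1.60 to 0.027), Ifih1 (-0.15 to 0.021), Parp9 (-0.30 to 0.39), Parp14 (-0.77 to 0.019), Dtx3l (-0.32 to 0.41), Psmb10 (-0.23 to 0.20) and H2-D1 (-0.11 to 0.55). The cause of these changes was not tested.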
